A study of Mus musculus with 6 samples.

Results

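The genes described here build the machinery that copies DNA and supplies it with nucleotides. They were chosen by symbol: 36 listed genes, of which 35 had a probe set of their own, among 18193 genes on the array. All 35 passed the filter on low values, a mean of 4.99 or more on the log2 scale over the 6 arrays, which 10916 genes passed. Chaf1a, the large subunit of a histone chaperone, was not analysed here. The RNA came from CD4+ Foxp3+ regulatory T cells (Treg) of mesenteric lymph nodes, from mice that were 4 to 6 weeks old, on 3 Affymetrix arrays a group. The first group holds induced Treg (iTreg) from Balb/c TBmc Foxp3 GFP mice after 1 week of oral ovalbumin at 1%, sorted as GFP+ and labelled Nrp-. The second holds total Treg from Balb/c Wild Type Foxp3 GFP mice, for which the labels name no ovalbumin. TBmc mice carry transgenic antigen receptors, so their T cells share a receptor for ovalbumin on a background without other receptors, and the Foxp3-GFP reporter marks Treg in both groups. Apart from the labels of 2 arrays, strain, antigen feeding and the Nrp gate change together with the group, and their parts in a difference cannot be told apart.

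Before a cell divides, the origin recognition complex, Cdc6 and Cdt1 load the ring of Mcm2 to Mcm7 onto DNA, and Cdc45 and the GINS complex turn that ring into the moving helicase. Polymerase alpha with primase starts each strand, the clamp loader RFC places the PCNA ring, and polymerases delta and epsilon extend it, while RPA coats the single strands. E2F transcription factors switch on many of these genes as cells leave G1, so that their RNA is widely read as a sign of proliferation. Part of the Treg pool of a healthy mouse is dividing at any time.

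In the files, 2 arrays carry a label that disagrees with their group: for iTreg replicate 1 the strain is given as Balb/c without TBmc, and WT Treg replicate 1 is labelled Nrp-. Median MAS5 signals, the array software's summary for a probe set, ranged from 21.1 to 32.3. They were lowest on the replicate 3 array of each group, 24.3 in iTreg and 21.1 in WT Treg. The spike-in controls, added in fixed amounts, were highest on the same arrays, at mean log2 signals of 12.9 and 12.9 against 12.1 to 12.6 on the others. For Gapdh, the 3′ signal over the 5′ signal, which grows as RNA breaks down, was 8.34, 5.60 and 10.4 on the iTreg arrays, against 4.86, 5.76 and 5.06 on the WT Treg arrays. All 5 measured CD4 T cell markers and 5 of 6 Treg markers exceeded the highest signal of unspiked bacterial controls, 28.5, on every array. The Treg exception was Foxp3, at 31.7, 54.6 and 15.6 on the iTreg arrays, against 26.2, 45.7 and 9.16 on the WT Treg arrays. The summed Treg marker signal was lower in iTreg, at 8143 to 9276 against 12555 to 15918, and its part in the results on replication genes was not tested. Of 4 measured B cell markers none exceeded 28.5 on every array. Single markers of plasma cells (Xbp1), myeloid cells (Cst3) and stroma (Pecam1) did, and the summed signal of both CD8 markers was 101 to 225 in iTreg and 73.2 to 107 in WT Treg.

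No replication gene passed the test between iTreg and WT Treg. Over all genes tested, limma called 0.0275% in either direction at a Benjamini-Hochberg adjusted p of 0.05, and 0 of 35 replication genes. At an unadjusted p under 0.05, 1 replication gene was lower in iTreg (Chaf1b) and 0 were higher, where 4.58% of all genes tested were lower and 3.0% higher. The groups did not overlap for 3 genes, all lower in iTreg (Rpa2, Rpa3 and Lig1), which is 8.57% of the list, beside 7.78% lower and 5.1% higher over all genes. These shares are near the background. The median log2 difference, iTreg minus WT Treg, was -0.10 for the 35 genes, with 20 negative and 15 positive, and -0.03 for all genes tested. Absolute differences over 1 on the log2 scale were found for 2 genes, Chaf1b and Pold1, or 5.71% of the list, and for 5.02% of all genes tested. Differences are of log2(signal + 16), a scale that understates the change of genes with low signals. In bulk RNA, fewer dividing cells and less RNA per dividing cell cannot be told apart.

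**Figure D1:**
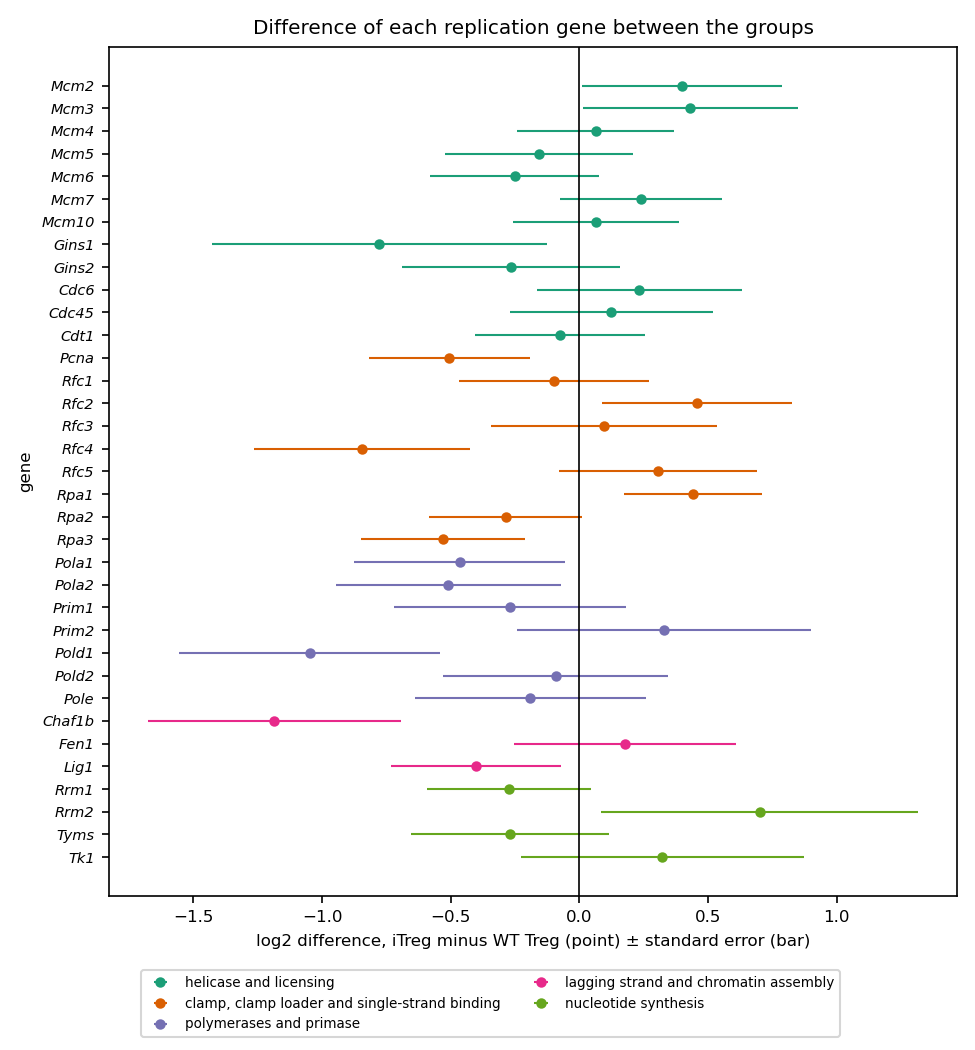
Log2 difference of each of the 35 replication genes between iTreg and WT Treg (points), with its standard error (bars), coloured by role. The points lie on both sides of 0, from -1.19 for Chaf1b to 0.70 for Rrm2, and none passed the test.

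The mean level of the genes differed more between arrays of a group than between the groups. On the log2 scale it was 7.84, 7.51 and 8.10 on iTreg replicates 1, 2 and 3 and 7.83, 7.86 and 8.12 on WT Treg replicates 1, 2 and 3. The group means were 7.82 ± 0.29 (SD, n = 3) and 7.94 ± 0.16 (SD, n = 3), a difference of -0.12 beside a pooled SD of 0.24 between arrays. The mean of all genes tested went from 7.59 to 7.71. The arrays share a trimmed mean of their signals and that list is far longer, so its range is no yardstick for the 35 genes. Of the 35 genes, 12 had their highest value on iTreg replicate 3 and 13 on WT Treg replicate 3, together 71.4%, against 44.0% of all genes tested. None was highest on iTreg replicate 2, beside 13.9% of all genes tested, and 11 (31.4%) were lowest there, beside 14.1%. On iTreg replicate 3, 6 were lowest (17.1%, beside 27.3%). Among the 9 genes of the clamp, its loader and RPA, 4 were lowest on iTreg replicate 3 and 3 highest. The replicate 3 arrays are the ones with the lowest median signals and the brightest spike-ins, and iTreg replicate 3 had the highest Gapdh ratio. The part of these measures in the high values was not tested.

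**Figure D2:**
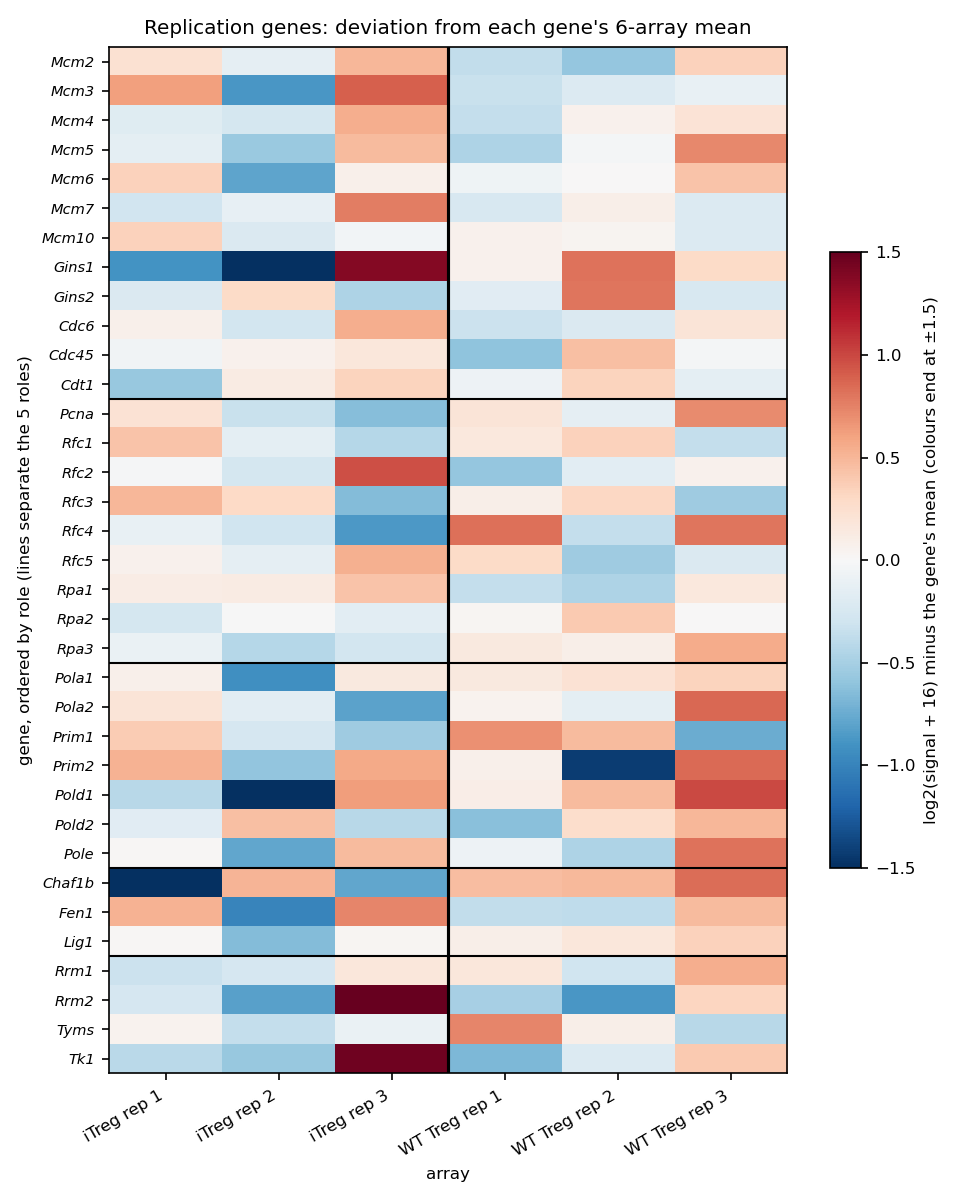
Log2(signal + 16) of each replication gene on each array, minus that gene's mean over the 6 arrays, with red above and blue below it; black lines separate the roles and the 2 groups. Red is densest on the replicate 3 array of each group and blue on iTreg replicate 2, where 11 genes were lowest.

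Genes of mitosis, a list of 22 fixed for comparison of which 19 were tested, showed the same arrays at the top. Their mean log2 level was 6.5, 6.26 and 7.60 for iTreg, against 6.63, 6.41 and 7.0 for WT Treg. Here iTreg replicate 3 stood farther from the rest than it did for the replication genes. On it 14 of the 19 genes were highest (73.7%), beside 23.3% of all genes tested. The proliferation marker Mki67 had signals of 798, 631 and 1951 on the iTreg arrays, against 926, 852 and 1271 on the WT Treg arrays. In both groups its highest value was thus on replicate 3, and the groups overlapped. The median difference of the mitosis genes was 0.13, and none passed the test or had an unadjusted p under 0.05.

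**Figure D3:**
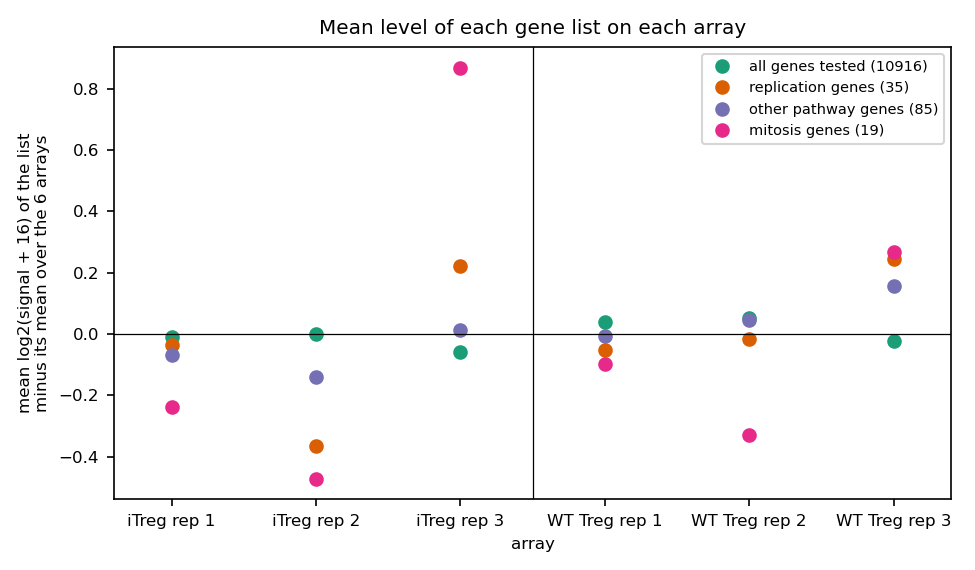
Mean log2(signal + 16) of each gene list on each array, minus the list's mean over the 6 arrays, for all genes tested, the replication genes, the other pathway genes and the mitosis genes. The mitosis genes range widest, from 6.26 to 7.60 before centring. All genes tested, a far longer list on arrays that share a trimmed mean, stay between 7.59 and 7.71.

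On the probe sets used, the 12 genes of helicase loading and activation showed no common direction, with 7 positive and 5 negative differences and a median of 0.06. The ring subunits Mcm2 to Mcm7 differed by 0.40, 0.43, 0.06, -0.16, -0.25 and 0.24, with standard errors from 0.31 to 0.42. Other probe sets above the filter level differed by -0.05 (Mcm2), -0.07 (Mcm4), 0.23 (Mcm5) and -0.40, 0.01 and 0.16 (Mcm7). Mcm3 had signals of 776, 265 and 946 on the iTreg arrays, against 393, 430 and 463 on the WT Treg arrays. Its WT Treg values lay close together, and the iTreg values lay on both sides of them. The mean was 662 ± 354 (SD, n = 3) in iTreg and 428 ± 35.1 (SD, n = 3) in WT Treg, a log2 difference of 0.43 ± 0.42 (SE; limma adjusted p = 0.850). Without iTreg replicate 2 it was 0.98. The other 4 probe sets of Mcm3 differed by 0.50, 0.24, -0.18 and -0.35. Mcm6 also depended on the probe set, at -0.25 on the one used. It was -1.18 (unadjusted p = 0.00486 and adjusted p = 0.447 in limma) when only probe sets specific by name were kept. Its remaining probe set, below the filter level, differed by 0.54.

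Gins1, a subunit of the GINS complex, was the most variable gene of this role. Its signals were 39.1, 16.6 and 250.5 on the iTreg arrays, against 91.0, 163 and 109 on the WT Treg arrays. iTreg replicates 1 and 2 lay below every WT Treg array and iTreg replicate 3 above them all. The signal on iTreg replicate 2 was also below the unspiked maximum of 28.5. The log2 difference was -0.78 ± 0.65 (SE; limma adjusted p = 0.833). It was -1.66 without iTreg replicate 3 and -0.15 without iTreg replicate 2. Gins2, another GINS subunit, differed by -0.27 and Cdc45, the remaining part of the helicase, by 0.12. The loaders Cdc6 and Cdt1 differed by 0.23 and -0.08. On other probe sets above the filter level the differences were -0.19 (Gins1), -0.71 (Gins2) and -0.22 (Cdt1). Mcm10, which helps to activate the helicase, differed by 0.06, with signals at or below the unspiked maximum of 28.5 on every array.

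Among the 9 genes of the clamp, its loader and the single-strand binder RPA, differences were 4 positive and 5 negative. Rpa3, the smallest RPA subunit, had signals of 263, 206 and 232 on the iTreg arrays, against 314, 302 and 425 on the WT Treg arrays. Every iTreg value lay below every WT Treg value. iTreg and WT Treg differed by -0.53 ± 0.32 (SE; limma adjusted p = 0.740), and -0.62 to -0.38 without single arrays. Rpa2, the middle subunit, had signals of 304, 366 and 328 on the iTreg arrays, against 376, 487 and 370 on the WT Treg arrays. Its groups also did not overlap, though iTreg replicate 2 and WT Treg replicate 3 were within a few units. On the log2 scale the difference was -0.29 ± 0.30 (SE; limma adjusted p = 0.855), -0.16 without WT Treg replicate 2, and -1.14 on its other probe set. Rpa1, the large DNA-binding subunit of the same complex, pointed the other way at 0.44 (limma adjusted p = 0.741), but its other probe set differed by -0.21.

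Rfc4, a small subunit of the clamp loader, had signals of 167, 146 and 93.3 on the iTreg arrays, against 335, 138 and 330 on the WT Treg arrays. WT Treg replicates 1 and 3 lay above all iTreg arrays, and WT Treg replicate 2 lay among them. The means were 135 ± 38.1 (SD, n = 3) and 268 ± 112 (SD, n = 3), a log2 difference of -0.84 ± 0.42 (SE; limma adjusted p = 0.698). Its other probe set differed by -0.41. The other loader subunits differed by -0.10 (Rfc1), 0.46 (Rfc2), 0.10 (Rfc3) and 0.31 (Rfc5). On the probe sets used, the 5 subunits of the loader thus showed no common direction. Other probe sets differed by 0.43 and -0.54 (Rfc1), -0.02 and 0.05 (Rfc2) and -1.06 (Rfc3). The sliding clamp Pcna differed by -0.51 ± 0.31 (SE; limma adjusted p = 0.747). Its signals were 2467, 1679 and 1364 on the iTreg arrays, against 2429, 1931 and 3477 on the WT Treg arrays, and the groups overlapped through iTreg replicate 1. Without WT Treg replicate 3 the difference was -0.28, without iTreg replicate 3 it was -0.32, and without both it was -0.09.

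Of the 7 polymerase and primase genes, 6 had negative differences and 1, the primase subunit Prim2, a positive one (0.33), with a median of -0.27. The other probe sets of Prim2 differed by -0.60 and, below the filter level, -0.34. Its signal on WT Treg replicate 2, 19.3, was below the unspiked maximum of 28.5. On WT Treg replicate 3 lay the highest value of 6 of these 7 genes (85.7%), beside 20.7% of all genes tested. Pold1, the catalytic subunit of polymerase delta, had signals of 368, 132 and 775 on the iTreg arrays, against 532, 697 and 1002 on the WT Treg arrays. The lower values belong to iTreg replicates 1 and 2, while iTreg replicate 3 lay inside the WT Treg range. The means were 425 ± 325 (SD, n = 3) and 744 ± 238 (SD, n = 3), a log2 difference of -1.05 ± 0.51 (SE; limma adjusted p = 0.686). The difference was -1.62 without iTreg replicate 3 and -0.42 without iTreg replicate 2, and -0.20 on the other probe set.

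Pola2, the accessory subunit of polymerase alpha, had signals of 85.2, 63.7 and 34.9 on the iTreg arrays, against 75.8, 64.1 and 145 on the WT Treg arrays. Only WT Treg replicate 3 exceeded iTreg replicate 1. The log2 difference was -0.51 ± 0.44 (SE; limma adjusted p = 0.834), while 0.36 was found on each of the other 2 probe sets, 1 of them below the filter level. It was -0.21 without WT Treg replicate 3 and -0.24 without iTreg replicate 3. The catalytic subunits Pola1 and Pole, of polymerases alpha and epsilon, differed by -0.47 and -0.19. Prim1, the catalytic primase subunit, differed by -0.27, and by -0.89 on its other probe set. Pold2, a delta subunit, differed by -0.09.

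Chaf1b, the middle subunit of the chromatin assembly factor that places histones on new DNA, had the lowest difference of the list. Its signals were 6.24, 73.7 and 20.8 on the iTreg arrays, against 71.0, 72.4 and 96.6 on the WT Treg arrays. iTreg replicates 1 and 3 were below the unspiked maximum of 28.5, and iTreg replicate 2 was at the WT Treg level, so the groups overlapped. Its difference on the log2 scale was -1.19 ± 0.49 (SE; unadjusted p = 0.0326 and adjusted p = 0.622 in limma). It ranged from -1.82 with a pseudocount of 1 to -0.62 with a pseudocount of 64, was -0.73 without iTreg replicate 1 and -1.74 without iTreg replicate 2, and its other probe set, below the filter level, differed by -0.62. Lig1, the ligase that joins Okazaki fragments, had signals of 279, 171 and 282 on the iTreg arrays, against 294, 312 and 356 on the WT Treg arrays. Every iTreg value was lower, and the nearest values, iTreg replicate 3 and WT Treg replicate 1, were almost equal. The groups' log2 means differed by -0.40 ± 0.33 (SE; limma adjusted p = 0.827), and by -0.18 without iTreg replicate 2. Fen1, the nuclease that trims the fragments, differed by 0.18, and by -0.70 on its other probe set.

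**Figure D4:**
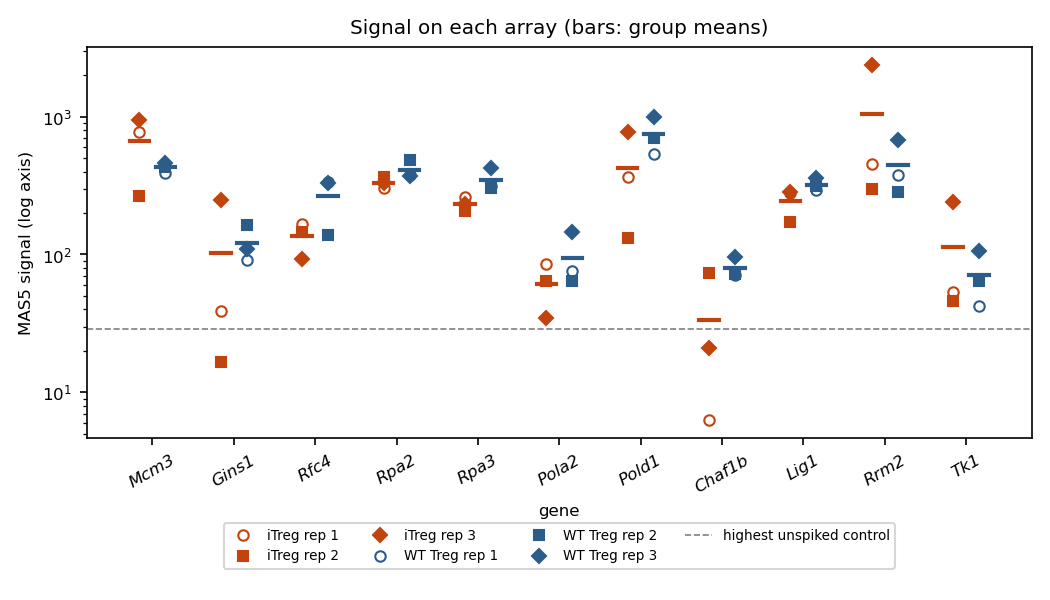
MAS5 signal on each array, on a log axis, of the 11 genes given with every value; symbols mark the replicate, colours the group, short bars the group means, and the dashed line the highest unspiked control (28.5). iTreg replicate 3 is the highest point for Rrm2 (2381), Gins1 (250.5) and Tk1 (239), and iTreg replicate 1 is the lowest for Chaf1b (6.24).

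Of the nucleotide synthesis genes, Rrm2 and Tk1, whose proteins are known to be made in S phase and degraded later, had their highest values on iTreg replicate 3, followed by WT Treg replicate 3. Rrm2, the small subunit of the ribonucleotide reductase that makes deoxynucleotides, had signals of 450, 299 and 2381 on the iTreg arrays, against 375, 285 and 678 on the WT Treg arrays. Without iTreg replicate 3 the remaining iTreg values lie within the WT Treg range. The log2 difference was 0.70 ± 0.62 (SE; limma adjusted p = 0.841), and -0.18 without iTreg replicate 3. On the other probe sets of Rrm2 it was 0.56 and -0.18. Tk1, the thymidine kinase of the cell cycle, had signals of 53.6, 46.3 and 239 on the iTreg arrays, against 42.0, 64.3 and 105 on the WT Treg arrays. Its pattern was the same, with a log2 difference of 0.32 (limma adjusted p = 0.913) and -0.33 without iTreg replicate 3. The large reductase subunit Rrm1 and the thymidylate synthase Tyms both differed by -0.27, Tyms with signals at or below 28.5 on 3 arrays.

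The counterparts that serve cells outside S phase were set beside them. Rrm2b, the reductase subunit for DNA repair and mitochondrial DNA, had signals of 539, 266 and 653 on the iTreg arrays, against 284, 301 and 325 on the WT Treg arrays. The iTreg values spread around the WT Treg values, with a log2 difference of 0.56 (limma adjusted p = 0.753), and 3 other probe sets differed by 0.08, -0.16 and -0.18. Tk2, the mitochondrial thymidine kinase, had signals of 62.8, 158 and 9.52 on the iTreg arrays, against 105, 171 and 196 on the WT Treg arrays. It was lowest on iTreg replicate 3, where Tk1 was highest, and differed by -1.26 (limma adjusted p = 0.679), with -1.91 to -0.53 without single arrays. The Tk2 signal on iTreg replicate 3 was below the unspiked maximum of 28.5, and Tk2 had no other probe set.

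Promoter sequences were examined because many members deviated together between arrays. RefSeq promoters (GRCm38.p6), from 250 bases before to 50 after a start site, matched 30 of the 36 genes. E2F factors are known to bind sites with cores such as TTCCCGC. This core, along with the related letters TTCGCGC as well as the letters TTGGCGC, was searched on both strands, counting overlapping matches separately. At least 1 core was found for 19 of the 30 genes, or 63.3%, against 9.2% of the 27025 genes in the promoter table and 17.0% of the 8887 of them that were tested here. The letters CCAAT, the box bound by NF-Y, were found for 63.3% of the members and 41.1% of all genes. For the mitosis genes the shares were 16.7% for the E2F cores and 83.3% for CCAAT, over 18 genes. Tested members with an E2F core (18) had a median difference of -0.26, from -1.19 to 0.43, and those without (11) a median of 0.12, from -0.51 to 0.70, so both sets spanned 0. A match says that the letters are present and not that a factor binds there.

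Upstream windows of 8 measured members are shown, those whose last core before the start site lies outside the annotated gene; among them are Rpa2, Rpa3 and Chaf1b. Capitals mark the cores, a longer run of capitals being overlapping cores. Up to 30 bases are shown on each side, within the promoter and before the start site. Cores past the start site, as in Mcm6, Rfc3 and Chaf1b, are therefore not shown. They lie at chr8:75109330-75109396 on the plus strand (Mcm5), chr1:128359712-128359778 on the minus strand (Mcm6), chr5:151651209-151651247 on the minus strand (Rfc3) and chr4:132768293-132768359 on the plus strand (Rpa2). The others lie at chr6:8259142-8259200 on the minus strand (Rpa3), chr10:128015170-128015214 on the plus strand (Prim1), chr16:93883651-93883710 on the plus strand (Chaf1b) and chr7:102441598-102441664 on the plus strand (Rrm1).
Mcm5: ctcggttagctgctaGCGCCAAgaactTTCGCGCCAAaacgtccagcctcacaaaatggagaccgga
Mcm6: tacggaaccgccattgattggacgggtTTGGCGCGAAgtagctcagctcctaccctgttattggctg
Rfc3: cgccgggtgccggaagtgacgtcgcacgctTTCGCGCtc
Rpa2: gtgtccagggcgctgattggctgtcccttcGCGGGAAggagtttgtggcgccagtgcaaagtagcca
Rpa3: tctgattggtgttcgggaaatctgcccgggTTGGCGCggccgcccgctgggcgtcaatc
Prim1: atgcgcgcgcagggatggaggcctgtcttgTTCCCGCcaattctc
Chaf1b: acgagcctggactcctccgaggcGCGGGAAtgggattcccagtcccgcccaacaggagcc
Rrm1: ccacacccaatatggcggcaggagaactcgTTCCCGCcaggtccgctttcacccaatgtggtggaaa
In the Mcm5 and Mcm6 windows cores of both orientations overlap, with a further core in that of Mcm5, while the other windows hold a core each. In the Prim1 and Rrm1 windows the core is TTCCCGC read in the direction of the gene. In those of Rpa2 and Chaf1b it is the same core on the opposite strand.

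The wider pathway was read from 92 further genes, in 8 lists grouped by function, of which 85 were tested. None passed the test. At an unadjusted p under 0.05, 4 were higher in iTreg (4.71%, beside 3.0% of all genes tested) and 6 lower (7.06%, beside 4.58%). The groups did not overlap for 4 higher (4.71%, beside 5.1%) and 11 lower (12.9%, beside 7.78%). The median difference was -0.11, with 54 negative and 31 positive, or 63.5% negative beside 52.8% of all genes tested. In purine synthesis 7 of 11 tested genes were negative, or 63.6%, with a median of -0.44. All 6 genes of pyrimidine synthesis had negative differences, with a median of -0.80. Of these 6, 5 (83.3%) were lowest on iTreg replicate 3, the array with the highest Gapdh ratio, beside 27.3% of all genes tested. The list's mean log2 level was 7.97, 7.80 and 7.03 on iTreg replicates 1, 2 and 3. Without iTreg replicate 3 the median was -0.33 and 5 of the 6 were negative; the part of RNA integrity was not tested. These lists are short and their genes share the same 6 arrays, so the medians are descriptions.

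Cad, the enzyme that begins pyrimidine synthesis, had signals of 65.4, 41.4 and 34.0 on the iTreg arrays, against 125, 174 and 162 on the WT Treg arrays. Every iTreg value lay well below every WT Treg value. The means were 46.9 ± 16.4 (SD, n = 3) and 154 ± 25.6 (SD, n = 3), a log2 difference of -1.45 ± 0.39 (SE; unadjusted p = 0.00288 and adjusted p = 0.348 in limma). Its other probe sets differed by -0.85 and -0.63, and without single arrays the difference was -1.65 to -1.30. The other genes of the list differed by -0.95 (Dhodh), -0.81 (Umps), -0.80 (Ctps), -0.40 (Ctps2) and -0.10 (Cmpk1), each with overlapping groups. Without iTreg replicate 3 these values were -0.44, -0.21, -0.72, -0.19 and 0.07. Gart, an enzyme with 3 activities in purine synthesis, had signals of 219, 158 and 245 on the iTreg arrays, against 308, 336 and 609 on the WT Treg arrays. The groups did not overlap, and the log2 difference was -0.91 (limma adjusted p = 0.613), with -0.73, -0.19 and -0.11 on its other probe sets.

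Among the other enzymes of deoxynucleotide supply, Nme1, a nucleoside diphosphate kinase, had signals of 684, 913 and 482 on the iTreg arrays, against 1279, 1063 and 1933 on the WT Treg arrays. The groups did not overlap, with a log2 difference of -1.02 (limma adjusted p = 0.491), but its other probe set differed by 0.13. Of the other fork genes, Rnaseh2c, a subunit of the nuclease that removes RNA from DNA, differed by -0.83 and Dscc1, part of an alternative clamp loader, by 0.85 (limma adjusted p = 0.622 for each), both without overlap. For Rnaseh2c the other probe sets differed by -0.07 and -0.92, and the difference was -0.51 without iTreg replicate 3. The signals of Dscc1 in WT Treg, 22.0, 19.0 and 25.8, were below the unspiked maximum.

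The regulators of E2F transcription held the highest difference of the pathway. E2f1, an activating E2F, had signals of 68.1, 70.0 and 124 on the iTreg arrays, against 38.9, 20.9 and 10.4 on the WT Treg arrays. Every iTreg value was higher, and WT Treg replicates 2 and 3 were below the unspiked maximum. iTreg and WT Treg differed by 1.41 ± 0.41 (SE; unadjusted p = 0.00499 and adjusted p = 0.405 in limma), and 0.28 and 0.13 on its other probe sets. Rb1, the retinoblastoma protein that holds E2F factors inactive, had signals of 431, 292 and 676 on the iTreg arrays, against 211, 260 and 231 on the WT Treg arrays. It was higher in every iTreg array, by 0.87 (limma adjusted p = 0.622), by 0.57 without iTreg replicate 3, and by 1.37 on its other probe set. Tfdp2, a DNA-binding partner of E2F factors, was lower in every iTreg array, by -0.97 (limma adjusted p = 0.613), with -0.26, -0.04 and 0.39 on its other probe sets.

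**Figure D5:**
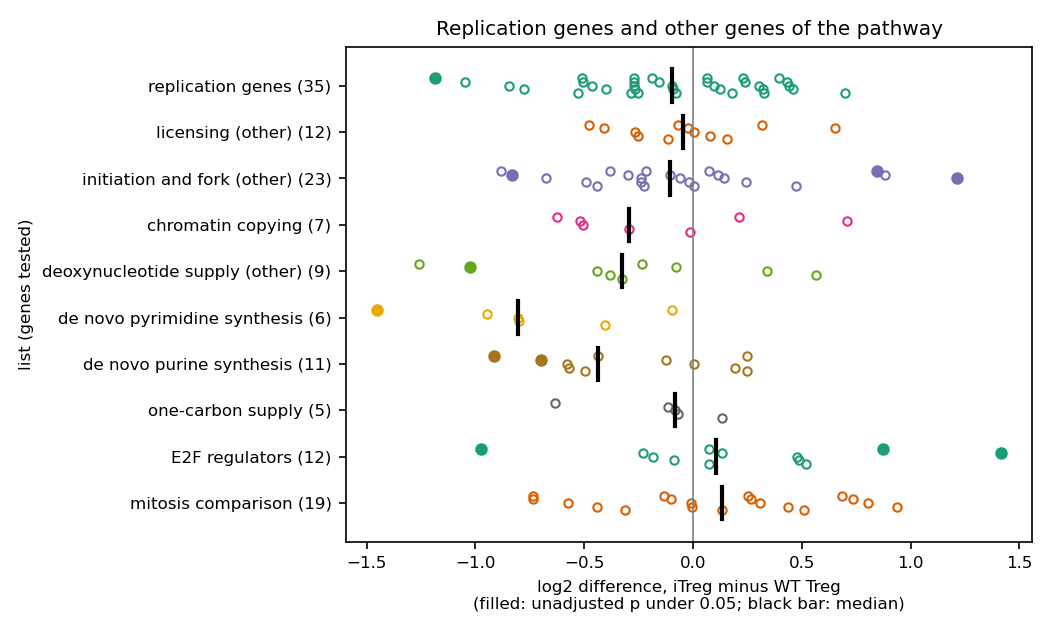
Log2 difference of each tested gene, iTreg minus WT Treg, for the 35 replication genes, the 8 pathway lists and the mitosis genes; filled points have an unadjusted p under 0.05 and black bars are medians. The lowest median is that of pyrimidine synthesis (-0.80, or -0.33 without iTreg replicate 3), and the highest single value that of E2f1 (1.41).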

How the data were processed

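Each deposited value is the linear intensity that MAS5, named in the submitters' processing notes, gave a probe set; its version is not given here. The authors' arrays share a 2% trimmed mean of 150.0. Groups and replicate numbers were taken from titles. Symbols came from the platform annotation, which gave 34945 of 45101 probe sets 1 symbol; the others were left out. For each gene the probe set with the highest mean of log2(signal + 16) over the 6 arrays was used, and genes at or above the 40th percentile of that mean were tested. The comparison used limma 3.58.1 under R 4.3.3, with moderated variances that follow intensity, as a two-sided test, with Benjamini-Hochberg adjustment over all 10916 genes. The fit was tested on simulated data, with planted differences larger than that of any replication gene. That test does not say how well smaller differences are detected. The members, lists and tests were chosen with earlier results of these data known.

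Every signal was given for the 2 members with the largest absolute difference in each role, for members with an unadjusted p under 0.05 or without overlap, and for Rrm2b and Tk2. Of each pathway list, up to 3 genes with such a p and without overlap were named. Pcna, Mki67, Dhodh, Umps, Ctps, Ctps2 and Cmpk1 were added after their values were seen. So were the other probe sets of Mcm2, Mcm4, Mcm5, Mcm6, Mcm7, Gins1, Gins2, Cdt1, Rfc1, Rfc2, Rfc3, Prim1, Prim2 and Rrm2. Of the 35 probe sets used, 17 have names ending in _a_at, _s_at or _x_at and may detect several transcripts. Another probe set above the filter level existed for 22 members and differed in sign for 13. Of the members, 27 exceeded the signal of unspiked controls on every array. Nothing in the labels tells whether each replicate is its own mouse, so the p-values reflect array-to-array spread that could be technical. With 3 arrays a group, their number limits the precision. Also tried were pseudocounts of 1 and 64, normalization by quantiles or medians, other filters, variance models and probe set rules, the replicate number as a block, and arrays left out.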

Additional observations from a re-analysis of the deposited data

How the results depend on the processing

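No replication gene passed the adjusted threshold under any of the 19 alternatives. The median difference of the list stayed within the spread between arrays, from -0.21 with probe sets specific by name to -0.03 with median scaling, and from -0.19 to 0.02 without single arrays. The number of members at an unadjusted p under 0.05 was 2 with the mean of probe sets, with probe sets specific by name and with the replicate block, 3 without both replicate 3 arrays, 0 with the 60th percentile filter and without both arrays with label doubts, and 0 to 2 without single arrays; Chaf1b is the member at that threshold as reported. Over all genes the count past the threshold was 6 with median scaling, 0 with no filter, with a pseudocount of 1, without both arrays with label doubts and without both replicate 3 arrays, 2 with the 60th percentile filter, and 0 to 1 without single arrays. Between same-numbered arrays the deviations had correlations of 0.17, 0.05 and 0.13 for replicates 1, 2 and 3. Between differently numbered ones they were -0.17 to 0.05. The value of replicate 2, 0.046, was below the highest of the differently numbered ones, 0.053. Whether arrays of a number share a batch was not tested. The labels do not say that a replicate number marks a shared mouse or day, so the numbers were not taken as pairs. With the replicate block the median was -0.10 and 3 genes passed.

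Of 45 named genes, 22 changed sign under some alternative. With the mean of probe sets these were Mcm4 (-0.0009), Cdc45 (-0.16), Rfc3 (-0.48), Pola2 (0.0687), Prim2 (-0.20) and Fen1 (-0.26), and with probe sets specific by name Mcm2 (-0.053), Mcm4 (-0.0652), Mcm5 (0.23), Rfc2 (-0.0219) and Rpa1 (-0.21). Without both arrays with label doubts they were Mcm10 (-0.0451), Cdc45 (-0.0871), Cdt1 (0.13), Rfc3 (-0.0598) and Fen1 (-0.18), and without both replicate 3 arrays Mcm4 (-0.0713), Mcm7 (-0.12), Pola2 (0.0665), Pold2 (0.32) and Tk1 (-0.0515). Without single arrays the difference spanned 0 for Cdc45 (-0.15 to 0.38), Cdt1 (-0.26 to 0.19), Fen1 (-0.14 to 0.72), Gins2 (-0.48 to 0.0687), Mcm10 (-0.0942 to 0.19), Mcm4 (-0.19 to 0.21), Mcm5 (-0.43 to 0.17), Mcm6 (-0.49 to 0.0831), Mcm7 (-0.0805 to 0.44), Pold2 (-0.43 to 0.13), Pole (-0.47 to 0.17), Prim1 (-0.71 to 0.0037), Prim2 (-0.30 to 0.83), Rfc1 (-0.34 to 0.0916), Rfc3 (-0.15 to 0.45), Rrm2 (-0.18 to 1.28), Tk1 (-0.33 to 0.69) and Tyms (-0.54 to 0.0278). The cause of these changes was not tested. Signals at or below the unspiked maximum on at least 1 array limit 8 members: Mcm10, Gins1, Cdc45, Pola1, Prim2, Pole, Chaf1b and Tyms. Among the named pathway genes they limit E2f1, Dscc1 and Tk2. Differences of genes with such signals depend on the pseudocount. That of Gins1 was -1.08 with a pseudocount of 1 and -0.41 with 64.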
